A study of Rattus norvegicus with 8 samples.

Results

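Ephrins and Eph receptors were examined in lung tissue of rats (Rattus norvegicus) by RNA sequencing of poly(A)-selected libraries. There were 2 groups of 4 libraries each: MCT, from rats given monocrotaline, a plant alkaloid used in the series to model pulmonary hypertension, and control. Strain, sex, age, dose and time after treatment are not given in the sources used here. They also do not say whether each library is a different rat, and every p-value therefore refers to variation among the 8 libraries, some of which may be technical. The genes described are the 10 members Efnb1, Efnb2, Efna1, Efna5, Ephb1, Ephb2, Ephb3, Ephb4, Epha2 and Epha4, found by gene symbol among the 32623 genes of the deposited table. Each symbol had 1 row. They were chosen by family and by their FPKM values and differences between MCT and control, known from an earlier look at these libraries, so their levels and calls describe them and support nothing further.

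Ephrins are membrane-bound ligands, and Eph receptors are the tyrosine kinases that bind them on a neighbouring cell. Ephrin-A ligands are held by a lipid anchor and mainly bind EphA receptors, while ephrin-B ligands cross the membrane and mainly bind EphB receptors. Receptor-bearing cells answer by forward signalling and ligand-bearing cells by reverse signalling, and cells often part at the contact. In blood vessels, ephrin-B2 is known as an arterial endothelial protein and EphB4 as its venous receptor. Ephrin-A1 is known from endothelium and from the response to tumour necrosis factor, and EphA2 from epithelium and endothelium.

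The promoter windows below belong to the 5 members whose levels changed between the groups in the fit described further on. Windows of 250 bases upstream of the gene start were taken from RefSeq on build GRCr8, which holds 9 of the 10 members and differs from the build of the expression table. Capitals mark the GC box letters GGGCGG and the letters TGGGAA, bound by the Notch effector RBPJ, on either strand. Neighbouring GC box matches overlap in Efna1, and no match to one motif overlapped a match to the other.
Efnb2, chr16:87484965-87485214, plus strand: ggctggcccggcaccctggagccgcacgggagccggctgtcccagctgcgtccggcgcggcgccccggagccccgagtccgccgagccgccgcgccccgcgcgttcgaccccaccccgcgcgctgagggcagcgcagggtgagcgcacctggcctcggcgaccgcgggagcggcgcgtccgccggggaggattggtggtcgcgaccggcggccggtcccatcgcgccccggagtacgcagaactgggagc
Efna1, chr2:176986822-176987071, minus strand: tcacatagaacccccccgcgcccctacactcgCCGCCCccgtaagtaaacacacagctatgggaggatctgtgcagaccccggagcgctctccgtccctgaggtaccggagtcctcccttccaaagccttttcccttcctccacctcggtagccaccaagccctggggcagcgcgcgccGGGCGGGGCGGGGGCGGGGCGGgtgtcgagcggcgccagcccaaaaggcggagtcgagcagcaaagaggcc
Efnb1, chrX:68297279-68297528, plus strand: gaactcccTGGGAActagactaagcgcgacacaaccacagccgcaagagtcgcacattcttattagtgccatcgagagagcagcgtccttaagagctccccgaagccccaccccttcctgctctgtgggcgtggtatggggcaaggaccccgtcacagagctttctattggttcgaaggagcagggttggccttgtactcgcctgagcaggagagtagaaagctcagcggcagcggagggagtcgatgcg
Ephb4, chr12:24988389-24988638, minus strand: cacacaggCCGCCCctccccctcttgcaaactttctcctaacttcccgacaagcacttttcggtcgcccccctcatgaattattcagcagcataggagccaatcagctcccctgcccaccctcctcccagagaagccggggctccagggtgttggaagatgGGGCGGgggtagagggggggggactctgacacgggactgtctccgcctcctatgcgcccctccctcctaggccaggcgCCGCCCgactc
Ephb1, chr8:111823760-111824009, minus strand: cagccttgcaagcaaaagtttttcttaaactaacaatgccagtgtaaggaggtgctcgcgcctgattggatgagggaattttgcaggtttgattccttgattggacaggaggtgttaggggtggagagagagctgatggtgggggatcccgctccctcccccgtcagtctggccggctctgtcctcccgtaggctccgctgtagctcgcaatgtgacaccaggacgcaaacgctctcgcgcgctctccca
The Efnb2 window was 80.4% G and C with 43 CpG dinucleotides, against a median of 51.2% and 5 over 33469 windows of the same length. The other member windows also lay above both medians, at 56.4% to 68.4% with 10 to 23 CpG dinucleotides. GGGCGG was matched 5 times upstream of Efna1 and 3 times upstream of Ephb4, and 30.5% of all windows held it. TGGGAA was matched once upstream of Efnb1, and 22.1% of all windows held it. Neither motif was matched upstream of Efnb2 or Ephb1. Of the members not shown, Ephb3 held 3 matches to GGGCGG and Epha2 held 1, and Efna5 and Ephb2 held none. TATAAA, the TATA box letters, and ACGTG, the core of the hypoxia response element, were matched in none of the 9 windows, against 12.9% and 16.6% of all windows.

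The libraries held about 10.8 to 18.1 M read pairs (M, 1e6), inferred from the spacing of the low counts. The first principal component (34% of the variance) separated MCT from control libraries. MCT 1 and control 1 stood apart from the others on the second component (15.3%), and club and basal airway markers were highest in these 2 libraries, at a mean log2 CPM (log2 counts per 1e6) of 6.5 and 6.35 against 3.66 to 5.33 in the other 6. Alveolar type 2 markers, which define lung, summed to 28800 to 37300 FPKM in control and 20700 to 26800 in MCT. FPKM is a level per transcript length and sequencing depth, and it is the scale of every level below.

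In MCT lung the 3 abundant ephrins and the most abundant Eph receptor were lower, and the weakly expressed receptor Ephb1 was higher. Of the 10 members tested with edgeR's quasi-likelihood test over 16715 genes, 4 fell (Efnb2, Efna1, Efnb1 and Ephb4), 1 rose (Ephb1) and 5 were not past the adjusted p threshold of 0.05. Over all genes tested, 20.5% were called, 9.45% as lower and 11.0% as higher. Because the members were chosen with this contrast in view, nothing is read from their share. The CPM values of the groups did not overlap for 5 members, 4 of them lower in MCT, and over all genes tested this held for 25.2%, with 11.8% lower. The median log2 fold change (MCT minus control) of the members was -0.28, against 0.03 over all genes tested. Without both of the libraries that stood apart, 4 members were lower and 1 higher.

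**Figure D1:**
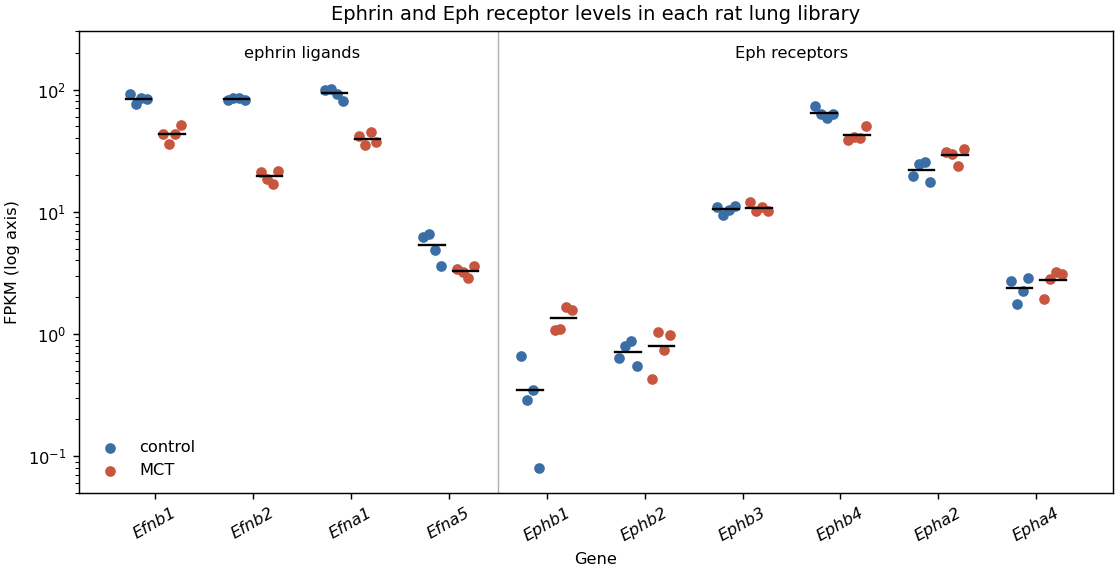
FPKM of the 10 members on a log axis, with 1 point per library (blue control, red MCT) and a black bar at the mean of each group of 4. Efnb2 is near 84 in control and near 20 in MCT, and Ephb1 is the member with higher MCT values in every library.

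Efnb2, the transmembrane ligand of EphB4, had the largest fall of the members. Its control libraries 1 to 4 were at 82.3, 85.82, 85.47 and 81.82 FPKM, and the MCT libraries at 21.07, 18.51, 17.01 and 21.51 FPKM. The groups did not overlap, and the control values lay within a few percent of each other (coefficient of variation 2.49% in control and 10.9% in MCT). The mean went from 83.9 ± 2.08 FPKM (SD, n = 4) to 19.5 ± 2.14, which is 23.3% of control. The log2 fold change was -2.10 (SE 0.10, edgeR adjusted p = 1.13e-05), the 95th lowest of 16715 genes. Behind these values stood 3907 to 5369 read pairs in control and 922 to 1720 in MCT libraries.

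Efna1, the anchored ligand of EphA2, was the most abundant member in control. It was at 98.92, 100.43, 91.12 and 81.03 FPKM in control libraries 1 to 4 and at 41.77, 34.98, 44.9 and 37.29 in MCT libraries 1 to 4. All MCT libraries lay under all control libraries. The mean was 92.9 ± 8.89 FPKM in control and 39.7 ± 4.45 in MCT, and the log2 fold change was -1.23 (SE 0.11, edgeR adjusted p = 0.00028).

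Efnb1, a transmembrane ligand of EphB receptors encoded on the X chromosome, was at 92.1, 76.09, 85.81 and 83.38 FPKM in control libraries and at 43.08, 36.17, 43.57 and 50.95 in MCT libraries. The groups did not overlap, with MCT 4 the highest of its group. The mean went from 84.3 ± 6.62 to 43.4 ± 6.04 FPKM, with a log2 fold change of -0.96 (SE 0.11, edgeR adjusted p = 0.000682). The microRNA gene Mir3573 lies within Efnb1 on the same strand and is counted as a gene of its own.

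Efna5, an anchored ligand best known from axon guidance, was at 6.21, 6.52, 4.88 and 3.57 FPKM in control libraries and at 3.38, 3.2, 2.88 and 3.59 in MCT libraries. Control 4 lay within the MCT values, so the groups overlapped. The log2 fold change of -0.70 (SE 0.26) was not past the threshold (edgeR adjusted p = 0.0856), but was with DESeq2 (adjusted p = 0.039), with limma on log2(FPKM + 0.5) (0.0487) and without control 4 (0.0414). Only 25 to 64 read pairs per library stood behind Efna5.

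Among the receptors, Ephb4, the receptor for ephrin-B2, was at 73.62, 63.55, 58.92 and 62.52 FPKM in control libraries and at 38.41, 40.63, 40.33 and 50.47 in MCT libraries. The groups did not overlap, and MCT 4 stood above the other MCT libraries. The mean was 64.7 ± 6.30 FPKM in control and 42.5 ± 5.43 in MCT, 65.7% of control. The log2 fold change was -0.61 (SE 0.11, edgeR adjusted p = 0.00472), and -0.71 without MCT 4.

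Ephb1, another receptor of B-type ephrins, was at 0.66, 0.29, 0.35 and 0.08 FPKM in control libraries and at 1.08, 1.1, 1.66 and 1.57 in MCT libraries. The groups did not overlap, but control 4 rested on about 4 read pairs and no library on more than 137. The log2 fold change was 1.94 (SE 0.51, edgeR adjusted p = 0.0263). That call was lost without control 2, control 3, MCT 2, MCT 3 or MCT 4 (adjusted p 0.0707, 0.0618, 0.0501, 0.0654 and 0.0588), and the log2 fold change was 2.44 without control 1 and 1.61 without control 4. On the log2(FPKM + pseudocount) scale, which understates changes of low genes, limma gave 1.16 at a pseudocount of 0.5 and 0.81 at 1.

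Ephb3, which binds B-type ephrins, was at 10.5 ± 0.816 FPKM in control and 10.8 ± 0.913 in MCT, with a log2 fold change of 0.04 (SE 0.09), the smallest of the members. The sign of that value turned negative without control 2, without MCT 1, and when control 1 was dropped together with MCT 1. Ephb2, a receptor of the same class, was at 0.71 ± 0.146 FPKM in control and 0.795 ± 0.274 in MCT (log2 fold change 0.16, SE 0.30). The groups overlapped for both receptors.

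Epha2, the receptor for ephrin-A1, was at 19.73, 24.56, 25.39 and 17.61 FPKM in control libraries and at 31.06, 29.53, 23.5 and 32.44 in MCT libraries. MCT 3 lay within the control values, and the other 3 MCT libraries were above all controls. The log2 fold change of 0.41 (SE 0.15) was not past the threshold (edgeR adjusted p = 0.0896), nor in any of the 18 alternatives run. Epha4, a receptor that binds ephrins of both classes, was at 2.4 ± 0.505 FPKM in control and 2.77 ± 0.581 in MCT (log2 fold change 0.21, SE 0.19), and the groups overlapped.

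The order of the members by level differed between the groups. In control, the ranges of Efna1 (mean 92.9 FPKM), Efnb1 (84.3) and Efnb2 (83.9) overlapped their neighbour in the order, and Ephb4 (64.7), Epha2 (21.8), Ephb3 (10.5), Efna5 (5.29) and Epha4 (2.4) followed with ranges apart. Ephb2 (0.71) and Ephb1 (0.345) overlapped at the bottom. In MCT, the ranges of Efnb1 (43.4), Ephb4 (42.5) and Efna1 (39.7) overlapped their neighbour in the order. Epha2 (29.1) then stood above Efnb2 (19.5) with ranges apart, whereas in control Epha2 was far below Efnb2.

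The other genes of the family were mostly at low levels. Of 12 listed, 11 had a row, 10 were tested, and none was called by edgeR, with 2 at an unadjusted p under 0.05 and 1 called by DESeq2. Their median log2 fold change was 0.32. Efna2, an anchored ligand, was at 1.86 ± 0.251 FPKM in control and 3.08 ± 0.529 in MCT, and its groups did not overlap. Its log2 fold change was 0.72 (SE 0.23, edgeR adjusted p = 0.0546), and it was called by DESeq2 (adjusted p = 0.018).

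Epha1, an epithelial receptor of A-type ephrins, was at 11.1 ± 0.87 FPKM in control and 14.1 ± 2.79 in MCT (log2 fold change 0.34, SE 0.14, edgeR adjusted p = 0.108). Its row overlaps Zyx on the opposite strand, and the sources used here do not say whether strand was used in counting. The remaining ligands Efna3 (2.21, SE 1.11), Efna4 (0.30, SE 0.22) and Efnb3 (-1.06, SE 0.50) had log2 fold changes not past the threshold. So had the receptors Epha3 (0.01, SE 0.27), Epha7 (0.12, SE 0.38), Epha8 (1.25, SE 1.09), Epha10 (0.68, SE 0.81) and Ephb6 (-0.16, SE 0.17). Epha5 was at no more than 0.05 FPKM in any library and was not tested, and Epha6 was not analysed here.

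**Figure D2:**
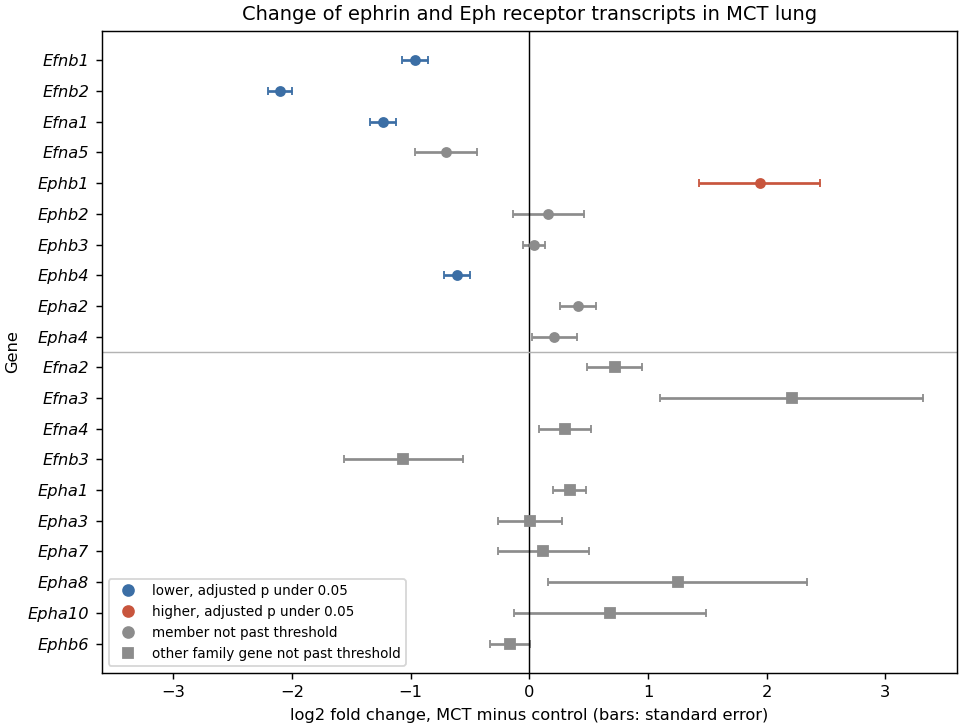
Log2 fold change (MCT minus control) with its standard error for the 10 members (circles, top) and the 10 other family genes tested (squares, bottom). Colour marks the 4 members called lower (blue) and the 1 called higher (red), and grey marks genes not past the threshold.

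The ephrin-A genes Efna1, Efna3 and Efna4 are neighbours in the rat genome, and of these Efna1 fell. On build Rnor_6.0 of the expression table, Efna1 (ENSRNOG00000020573, chromosome 2 from 188588796 to 188596222, minus strand) lies 41.6 kb from Efna3 and Efna3 lies 10.7 kb from Efna4. Efna4, with 3.11 ± 0.736 FPKM in control and 3.84 ± 0.561 in MCT, and Efna3, at 0 to 0.31 FPKM in control and 0.29 to 1.1 in MCT, were not past the threshold. That the change of Efna1 differs from theirs was not tested. Efnb2 (ENSRNOG00000014648) lies on chromosome 16 from 86631064 to 86675049, plus strand, and Ephb4 (ENSRNOG00000045952) on chromosome 12 from 22393330 to 22417980, minus strand. Efnb1 (ENSRNOG00000006877) lies on chromosome X from 68891227 to 68904038, plus strand, and Ephb1 (ENSRNOG00000007865) on chromosome 8 from 110376954 to 110813000, minus strand. Epha2 (ENSRNOG00000009222, from 159845774 to 159874206, plus strand) and Ephb2 (ENSRNOG00000012531, from 155022493 to 155204456, minus strand) lie on chromosome 5, where Ephb2 is 90.9 kb from Epha8. Efna5 (ENSRNOG00000034177, from 110057155 to 110225486) and Epha4 (ENSRNOG00000013213, from 83111222 to 83253458) lie on the minus strand of chromosome 9. Ephb3 (ENSRNOG00000031801) lies on chromosome 11 from 83527962 to 83546674, minus strand.

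Summed over the family, ligand transcripts were lower in every MCT library, while the receptor sums of the groups overlapped. The 8 ephrins together were at 254 to 286 FPKM in control and 101 to 122 in MCT, 41.9% of the control mean. The 13 receptors with a row were at 109 to 125 FPKM in control and 99 to 121 in MCT, so the groups overlapped. The ratio of the ephrin sum to the receptor sum was 2.29 to 2.44 in control and 1.0 to 1.17 in MCT. These sums include the members that chose the set and carry no test.

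The make-up of each side also differed. Efnb2 made up 30.9 ± 1.45% of ephrin FPKM in control and 17.2 ± 1.65% in MCT, while Efnb1 went from 31.0 ± 2.33% to 38.0 ± 2.5%. Efna1 was at 34.1 ± 1.95% and 35.0 ± 3.51%. On the receptor side, Ephb4 made up 56.0 ± 2.83% in control and 40.2 ± 1.64% in MCT, and Epha2 19.0 ± 3.47% and 27.7 ± 3.07%. EphA receptors summed to 37.6 ± 3.72 FPKM in control and 48.5 ± 5.21 in MCT, and EphB receptors to 77.8 ± 7.02 and 56.8 ± 5.30.

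**Figure D3:**
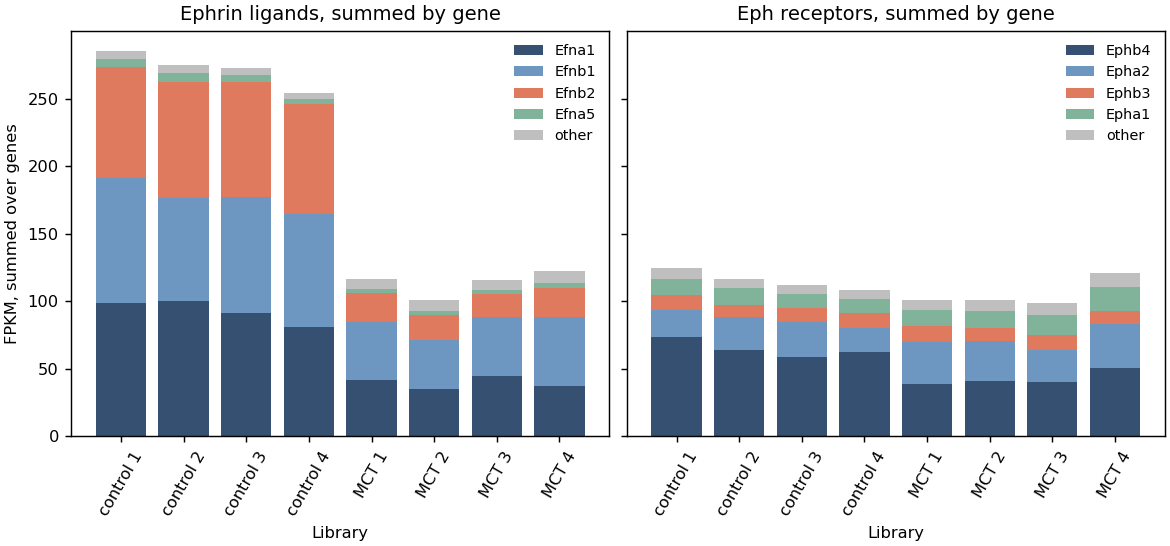
FPKM summed over ephrins (left) and Eph receptors (right) in each library, with 1 colour per gene and the remaining family genes in grey. The ephrin stacks reach 254 to 286 in control and 101 to 122 in MCT, and the receptor stacks 99 to 125 over all libraries.

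The level of Efnb2 relative to Ephb4, the ligand and receptor of arterial and venous endothelium, was lower in MCT. The Efnb2 level was 1.12, 1.35, 1.45 and 1.31 times that of Ephb4 in control libraries 1 to 4, and 0.549, 0.456, 0.422 and 0.426 times in MCT libraries 1 to 4. Every control library was above 1 and every MCT library below it. The mean log2 ratio went from 0.38 ± 0.16 to -1.12 ± 0.18, a difference of -1.5. This value is given without a test, since both genes were chosen with their change known.

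Other arterial endothelial genes were mostly lower. Of 18 tested, 11 fell, 3 rose and 4 were not past the threshold, with a median log2 fold change of -0.62. Over all genes tested, 9.45% were called lower and 11.0% higher. Dll4, a Notch ligand of arterial and tip endothelial cells, went from 27.2 ± 1.59 to 4.89 ± 0.668 FPKM (log2 fold change -2.48, SE 0.10), and Sema3g, an arterial semaphorin, fell by 3.07 on the log2 scale (SE 0.14). As further examples chosen after their values were seen, the Notch target Hey1 went from 52.6 ± 2.85 to 13.2 ± 1.9 FPKM and Notch1 from 31.5 ± 3.47 to 14 ± 1.93. The 3 members that rose were the connexin gene Gja5 (log2 fold change 0.56, SE 0.12), the chemokine gene Cxcl12 (1.51, SE 0.18), which fibroblasts also make, and the Wnt inhibitor gene Dkk2 (1.48, SE 0.34). The list therefore did not move in 1 direction. This list and the lists below were chosen with earlier results of these data known, so their counts are a description only.

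Venous endothelial genes were split. Of 8 tested, 3 rose, 2 fell and 3 were not past the threshold, with a median log2 fold change of 0.06. Among all genes tested, 11.0% were called higher and 9.45% lower. Aplnr, the apelin receptor, went from 53.7 ± 6.61 to 25.9 ± 2.76 FPKM (log2 fold change -1.05, SE 0.11), and Vwf, the von Willebrand factor gene, fell by 0.82 (SE 0.16). Emcn, a sialomucin of venous and capillary endothelium, went from 51.1 ± 12.5 to 114 ± 16.3 FPKM. Selp and Vegfc also rose, but the groups overlapped for Vegfc (MCT 1 at 9.63 FPKM, control 4 at 9.99). Nr2f2, the transcription factor of venous identity, had a log2 fold change of 0.23 (SE 0.10, edgeR adjusted p = 0.119). That the arterial and venous lists differ was not tested.

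**Figure D4:**
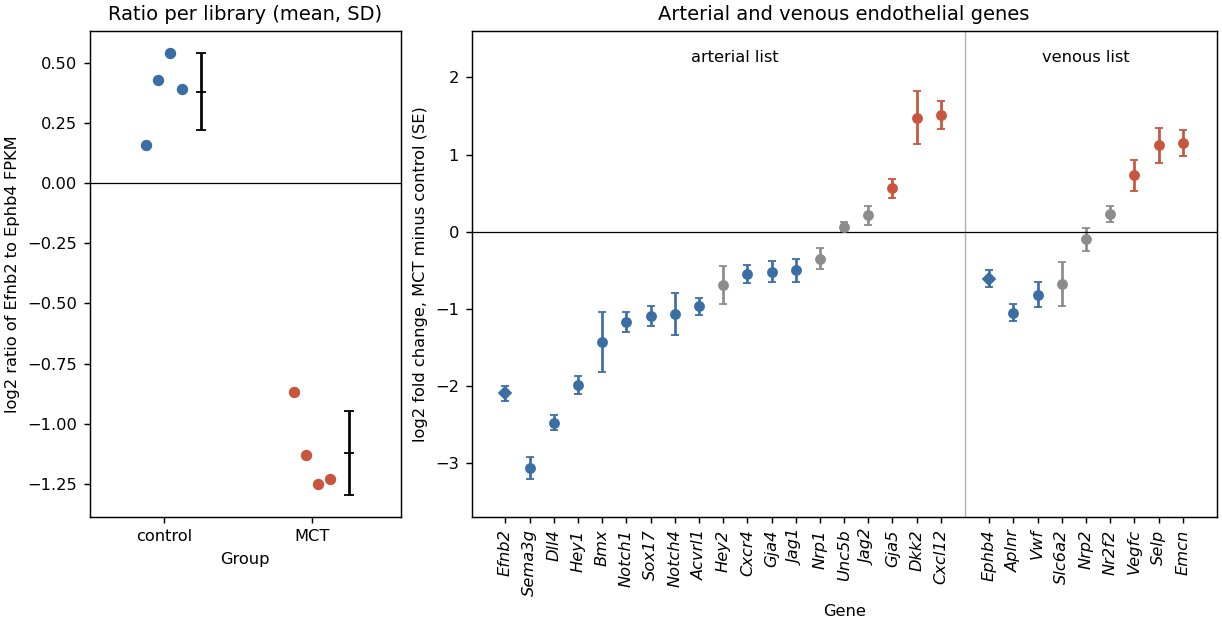
Left, log2 ratio of Efnb2 to Ephb4 FPKM in each library with mean and SD per group. Right, log2 fold change (MCT minus control) with standard error for the arterial and venous lists, led by Efnb2 and Ephb4 (diamonds), with blue for lower, red for higher and grey for not past the threshold.

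Markers of endothelium as a whole were lower or not past the threshold. Of 19 pan-endothelial genes tested, 9 fell, none rose and 10 were not past the threshold, with a median log2 fold change of -0.52. The shares over all genes tested were 9.45% lower and 11.0% higher. Egfl7 (0.21, SE 0.12), Ecscr (0.1, SE 0.11) and Mmrn2 (0.4, SE 0.14) had positive log2 fold changes, not past the threshold. All 19 genes of the list together summed to 1480 to 1700 FPKM in control and 968 to 1210 in MCT. Within the list, Tek, the angiopoietin receptor (-2.61), and Clec14a, an endothelial lectin (-2.04), fell by amounts near that of Efnb2, whereas Cdh5, the cell junction cadherin, had -0.52 (SE 0.21) and Kdr, a receptor of vascular endothelial growth factor, -0.32 (SE 0.15), both not past the threshold. Cldn5 was listed at 0 in MCT 2 and Robo4 at 0 in MCT 4. In whole lung, fewer cells of a type and less RNA per cell cannot be told apart, and the part of endothelial content in the changes of the members was not tested.

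Markers of other cell types and cell cycle genes were also compared. The background for each count is the share of all genes tested that was called, 20.5%, with 9.45% lower and 11.0% higher. Fibroblast genes rose in 5 of 9 cases (Col1a1 by 1.70, SE 0.19, and Col3a1 by 1.41, SE 0.20), with summed levels of 692 to 923 FPKM in control and 1200 to 1890 in MCT. In the smooth muscle and pericyte list 2 of 11 fell (Rgs5 by 1.5 and Notch3 by 0.60 on the log2 scale) and none rose. Of the alveolar type 1 genes 1 of 6 fell (Rtkn2). Nothing is read from either count, as so few genes were called. Of the alveolar type 2 genes 5 of 9 fell (among them Etv5 and Slc34a2) and 1 rose. Macrophage genes rose in 5 of 8 cases (C1qa and C1qc among them), mast cell genes in 4 of 5 (Cpa3 and Ms4a2 among them, while 1 fell) and cell cycle genes in 8 of 9 (Tpx2 and Top2a among them). In the T and NK cell list 3 of 7 fell (Prf1 among them) and 1 rose (Cd3g). The ciliated (7 tested), club and basal (5), B cell (4), neutrophil (4), cardiac (5), mesothelial (4) and Schwann (3) lists had no call by edgeR, and of their most abundant genes S100a9 had the largest log2 fold change (1.34, SE 0.51). Those of Tppp3 (-0.39), Scgb1a1 (0.27), Cd79b (-0.05), Actc1 (0.43), Msln (0.48) and S100b (-0.21) were smaller. Their part in the changes of the members was not tested.

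Genes that carry the Eph and ephrin signal were called about as often as genes in general, of which 20.5% were called, 9.45% as lower and 11.0% as higher, so nothing is read from their counts. In the forward signalling list, the adaptors, exchange factors and kinases that act behind Eph receptors, 6 of 31 fell and 1 rose, with a median log2 fold change of -0.22. Grb7, an adaptor, went from 11.6 ± 0.894 to 4.78 ± 1.70 FPKM (log2 fold change -1.27, SE 0.22), and Abl1, a tyrosine kinase, from 17.9 ± 2.45 to 12 ± 1.08 (-0.59, SE 0.12). The others that fell were Ptk2, Arhgef15, Arhgef5 and Inppl1, and the one that rose was Tiam1, an exchange factor for Rac (1.14, SE 0.26). The kinases Src (-0.01, SE 0.12) and Fyn (0.06, SE 0.09) were not past the threshold.

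Behind ephrins, 2 of 7 reverse signalling genes fell and none rose. These are too few genes to set apart from the 9.45% called lower and 11.0% called higher over all genes tested. Rgs3, which links ephrin-B to G protein signalling, was at 19.67, 16.54, 16.82 and 19.82 FPKM in control libraries and at 9.54, 9.95, 9.61 and 9.66 in MCT libraries. The MCT libraries lay within a few percent of each other and well under every control (log2 fold change -0.91, SE 0.08, edgeR adjusted p = 0.000247). Pard6b, a polarity protein that binds ephrin-B1, fell by 0.51 on the log2 scale (SE 0.10). Of 5 genes that cleave ephrins or Eph receptors, 1 rose and none fell, and with so few genes nothing is read from that count. The gene that rose was the membrane metalloproteinase gene Mmp14 (27.6 ± 4.13 to 53.4 ± 12.7 FPKM, log2 fold change 0.95, SE 0.17), while Adam10 had -0.12 (SE 0.13). The number of lower genes over these 3 lists was 8 in all libraries, 5 without control 2, control 3 or MCT 4, and 4 without control 4 or MCT 2.

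Some genes followed the members closely over the 8 libraries, among 12718 genes with a mean of at least 2 FPKM. The 3 with the highest Pearson correlation of log2 CPM with Efnb2 were Proser2 (r = 0.998, 25.2 ± 0.544 FPKM in control and 11.6 ± 0.932 in MCT), the ceramidase gene Acer2 (r = 0.998, 204 ± 15.7 and 27.1 ± 3.62) and the Wnt co-receptor gene Lrp5 (r = 0.997, 42.1 ± 0.896 and 25.2 ± 1.19). Those with Efna1 were the histone methyltransferase gene Ezh1 (r = 0.992), Slc25a23 (0.990) and Trim8 (0.988). Those with Ephb4 were Btbd2 (r = 0.993), Ccdc3 (0.987) and the kinase gene Pim1 (0.983). The 8 points share their libraries and depth and fall into 2 separate groups, so these values are given as a description only.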

How the data were processed

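RNA from rat lung was sequenced in 8 libraries, 4 MCT and 4 control, grouped by their labels. The authors used cutadapt 1.9, HISAT2 2.0.4, StringTie 1.3.4d and edgeR with build Rnor_6.0, as listed in the notes on processing by the submitters, without order or settings. The deposited table holds estimated counts (whole numbers) and FPKM values per gene and library, per the file headers. A step of 3.67 count units per read pair was found from the spacing of the low values, so totals of 39.8 to 66.6 M units stand for about 10.8 to 18.1 M read pairs.

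The estimated counts were rounded, which changed none, and 16715 genes passed filterByExpr (minimum count 10). They were tested with edgeR 4.0.16 (TMM, robust quasi-likelihood test, two-sided, Benjamini-Hochberg over all genes, threshold 0.05) in R 4.3.3. Standard errors are the log2 fold change divided by the root of its F statistic. Scores are mean log2 CPM (prior count 2). The members and the 23 other gene lists were chosen with earlier results of these data known. Named were all family genes, the 2 called genes of each list with the smallest p, or the most abundant one where none was called. The correlated genes were the 3 highest. Further list members named are examples chosen after their values were seen. Of the listed genes, 6 had no row and were not analysed here. Alternatives were limma 3.58.1 on log2(FPKM + 0.5), DESeq2 1.42.0 and others in the closing section. No 2 libraries of a group were duplicates (chi-square per gene at least 16.08). The fit was tested on simulated data.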

Additional observations from a re-analysis of the deposited data

Results flagged for a closer look

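In 6 of the 110 groups of 4 libraries examined for the named genes, 1 library lay far from the other 3 on log2 CPM, where chance gives about 5.5 (1 in 20). Divided by the range over the 4 libraries, the distance of that library to its nearest was 0.856 for Ephb4 in MCT (MCT 4 at 50.47 FPKM, against 38.41 to 40.63). It was 0.945 for Abl1 in MCT (MCT 1 at 10.38 FPKM, against 12.49 to 12.62) and 0.886 for Notch3 in MCT (MCT 1 at 15.7 FPKM, against 18.75 to 18.93). It was 0.866 for Rgs5 in MCT (MCT 2 at 15.52 FPKM, against 8.19 to 9.08) and 0.92 for the mast cell gene Ms4a2 in MCT (MCT 1 at 13.66 FPKM, against 37.31 to 41.38). In control it was 0.937 for S100b (control 2 at 0.87 FPKM, against 2.17 to 2.33).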

How the results depend on the processing

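Efnb2, Efna1, Efnb1 and Ephb4 stayed past the threshold and lower in all 19 fits, with log2 fold changes of -2.16 to -2.03, -1.30 to -1.17, -1.05 to -0.88 and -0.71 to -0.51. Ephb1 passed in 13 of 19 fits, at 0.81 to 2.53. Deviations from the group means of same-numbered libraries had correlations of 0.11, 0.016, -0.017 and -0.085, in the order of their numbers. Between libraries with unlike numbers the correlations were -0.079 to 0.075. The numbers were therefore not taken as a pairing. With the replicate block 0 members were higher (Ephb1 at 2.18, adjusted p 0.0507) and 4 lower. The number of other family genes called higher was 2 with limma on log2(FPKM + 0.5), and 1 with pseudocounts of 0.1 and 1, an FPKM of at least 1 in 4 libraries, DESeq2 or counts divided by 3.67. Leaving out 1 library gave 1191 to 1946 higher and 975 to 1730 lower genes in all, the lowest without MCT 2. It gave 0 to 1 higher and 4 to 5 lower members, 0 higher and 0 to 1 lower other family genes, 2 to 3 higher and 4 to 9 lower signalling genes, 7 to 11 higher and 17 to 26 lower endothelial genes, and an Efnb2 to Ephb4 log2 ratio difference of -1.58 to -1.45. Signs turned for genes near 0. Epha3 was at -0.0012, -0.0045, -0.002 and -0.0023 with limma at pseudocounts 0.5 and 0.1, DESeq2 size factors and DESeq2. With control 1 and MCT 1 left out, Epha3 was at -0.14, Ephb3 at -0.0062 and Ephb6 at 0.02. Cd79b was at 0.05 to 0.06 with limma and 0.06 with the replicate block. Leaving out single libraries gave Ephb3 -0.03 to 0.07, Epha3 -0.22 to 0.17, Epha7 -0.14 to 0.29, Ephb6 -0.23 to -0.03, Scgb1a1 -0.21 to 0.55 and Cd79b -0.27 to 0.42. The cause was not tested. No scaling moved the median of all genes by over 0.03. Depth limits Ephb1, Ephb2, Efna5 and the other weak family genes, with about 4 to 137 read pairs per library for Ephb1.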

Other observations

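Lymphatic endothelial genes, a further set in which ephrin-B2 and EphB4 are known to act, were higher or not past the threshold. Of 5 tested, 3 rose, none fell and 2 were not past the threshold, with a median log2 fold change of 1.41. Of all genes tested, 11.0% were called higher and 9.45% lower. Prox1, the transcription factor of lymphatic identity, was at 0.15, 0.05, 0.12 and 0.23 FPKM in control libraries and 0.29, 0.67, 0.71 and 0.4 in MCT libraries (log2 fold change 1.91, SE 0.47, edgeR adjusted p = 0.0201). Mmrn1, a lymphatic multimerin, went from 3.43 ± 1.31 to 9.11 ± 2.36 FPKM, and Ccl21, the lymphatic chemokine, had a log2 fold change of 2.77 (SE 0.28). Flt4, the receptor for Vegfc, had 0.29 (SE 0.13) and was not past the threshold.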
